A study of Rattus norvegicus with 9 samples.

Results

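The EGF receptor, its ligands and its feedback inhibitor were followed in rat aortic smooth muscle cells (RASMC) after 6 hr of Na+,K+-ATPase inhibition. The set holds 10 genes: 6 ligands (*Ereg*, *Areg*, *Hbegf*, *Tgfa*, *Btc* and *Nrg1*), 3 receptors (*Egfr*, *Erbb2* and *Erbb3*) and the inhibitor *Errfi1*. These are 10 of the 14324 genes that the arrays measured with a probe set of 1 gene symbol, and each of the 10 had a single such probe set. They were chosen by their family and by their differences between these same arrays, which were already known, so their own values are described without a test. The 9 arrays (Affymetrix Rat Gene 1.0 ST) carried RNA from quiescent cells, with 3 of cells in DMEM plus 3 mM ouabain, 3 of cells in K+-free DMEM and 3 of cells in control DMEM. Every group, controls included, was held for 24 hr in 0.2% serum beforehand and washed with K+-free DMEM. Ouabain blocks the Na+,K+-ATPase, whereas K+-free medium removes the extracellular ion that the pump carries inward. The cells were bought from Lonza and kept below 10 passages, and both treatments share the same control arrays.

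EGF family ligands are made as membrane-anchored precursors, which metalloproteases such as ADAM17 cut to release the active factor. Ligand binding pairs receptors of the ErbB family and starts Ras-ERK, PI3K and STAT signaling. ERK activity in turn induces ligands, immediate early transcription factors and feedback inhibitors, so that the family forms both positive and negative loops. In arterial smooth muscle, this receptor is known for its part in growth and migration, and it can be engaged by vasoactive hormones through ligand shedding.

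The deposited values are log2 signals made with RMA (robust multi-array average), so a difference of 1 is a doubling. Array medians lay between 6.76 and 6.80, and no detection call was used. The arrays bear out the smooth muscle label in part: 6 of the 7 measured smooth muscle markers lay above the array medians, and *Des* did not. The summed signal of these 7 markers was 13.98 to 14.20 with ouabain, 14.16 to 14.19 in K+-free medium and 14.35 to 14.39 in control on the log2 scale. By the rule for a call given below, 5 of the 7 fell with ouabain and 3 in K+-free medium, and none rose. Over all genes that rule called 17.5% upward and 22.7% downward with ouabain, and 17.8% and 24.0% in K+-free medium. The median differences of the 7 markers were -0.28 and -0.19, and *Des* lay 0.18 and 0.24 above control without a call. The largest fall was that of *Lmod1*, an actin filament regulator of smooth muscle. It fell by 1.61 (limma adjusted p = 6.88e-09) with ouabain and by 1.48 (limma adjusted p = 8.24e-09) in K+-free medium. All 5 macrophage markers were under the array medians in control, although 2 of them rose with each treatment. *Cd68*, a lysosomal protein, rose by 1.29 (limma adjusted p = 7.65e-08) with ouabain and by 0.94 (limma adjusted p = 7.12e-07) in K+-free medium. *Csf1r*, which stayed under the medians on all arrays, rose by 0.33 (limma adjusted p = 0.000724) and 0.53 (limma adjusted p = 1.73e-05). The summed macrophage signal was 8.71 to 8.81 with ouabain, 8.59 to 8.66 in K+-free medium and 8.10 to 8.16 in control. The 5 epithelial markers gave 8.83 to 8.90, 8.79 to 8.89 and 8.77 to 8.94 in ouabain, K+-free medium and control, with none called. Of these, 4 had means under the array medians in every group, while *Krt8* lay above them on all arrays. Of the 2 measured Schwann cell markers, *Sox10* lay above the medians on all arrays and *S100b* under them. Their sum was 7.77 to 7.86 with ouabain, 7.77 to 7.81 in K+-free medium and 7.61 to 7.74 in control, with none called. The 3 endothelial markers were all under the array medians in every group, with a summed signal of 7.41 to 7.50 with ouabain, 7.43 to 7.47 in K+-free medium and 7.24 to 7.30 in control. Among them *Cdh5*, for VE-cadherin, rose by 0.40 (limma adjusted p = 4.11e-05) with ouabain and by 0.29 (limma adjusted p = 0.000466) in K+-free medium. Of the 4 fibroblast markers 3 lay above the array medians in every group, and their sum was 13.48 to 13.52 with ouabain, 13.64 to 13.70 in K+-free medium and 13.32 to 13.35 in control. In K+-free medium 2 of the 4 rose, the receptor gene *Pdgfra* by 1.30 (limma adjusted p = 2.34e-08) and the matrix proteoglycan gene *Lum* by 0.29 (limma adjusted p = 0.000808), and none was called with ouabain. The part of these shifts in the results below was not tested, and in RNA from whole wells fewer cells of a type and less RNA per cell cannot be told apart.

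Of the 10 genes, 7 were higher after both treatments and 1 was lower. The rule for a call was a limma adjusted p under 0.05 together with more than a 1.2-fold difference. These were the same genes under both: *Ereg*, *Areg*, *Hbegf*, *Btc*, *Nrg1*, *Egfr* and *Errfi1* upward and *Erbb2* downward. Of all 14324 genes, the same rule called 17.5% upward and 22.7% downward with ouabain, and 17.8% upward and 24.0% downward in K+-free medium. That balance moves with the scaling: on arrays centred on *B2m*, 2166 probe sets were higher and 6223 lower with ouabain, where the deposited scale gave 4312 and 4583. The *B2m* scale gave 2375 and 7059 in K+-free medium, where the deposited one gave 4391 and 4890. *B2m* itself lay 0.15 above control with ouabain (limma adjusted p = 0.0163) and 0.16 above it in K+-free medium (limma adjusted p = 0.0129). Both are under the fold limit, and the centring takes these differences off every gene. Because these contrasts were known when the genes were gathered, nothing is read from the counts. On the log2 scale, the median difference of the 10 genes was 0.80 with ouabain and 0.96 in K+-free medium, beside 0.06 and 0.05 over all genes. Arrays of the 2 groups did not overlap for 9 of the 10 genes in either comparison with control, where 63.1% of all genes did not overlap with ouabain and 65.6% in K+-free medium.

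**Figure D1:**
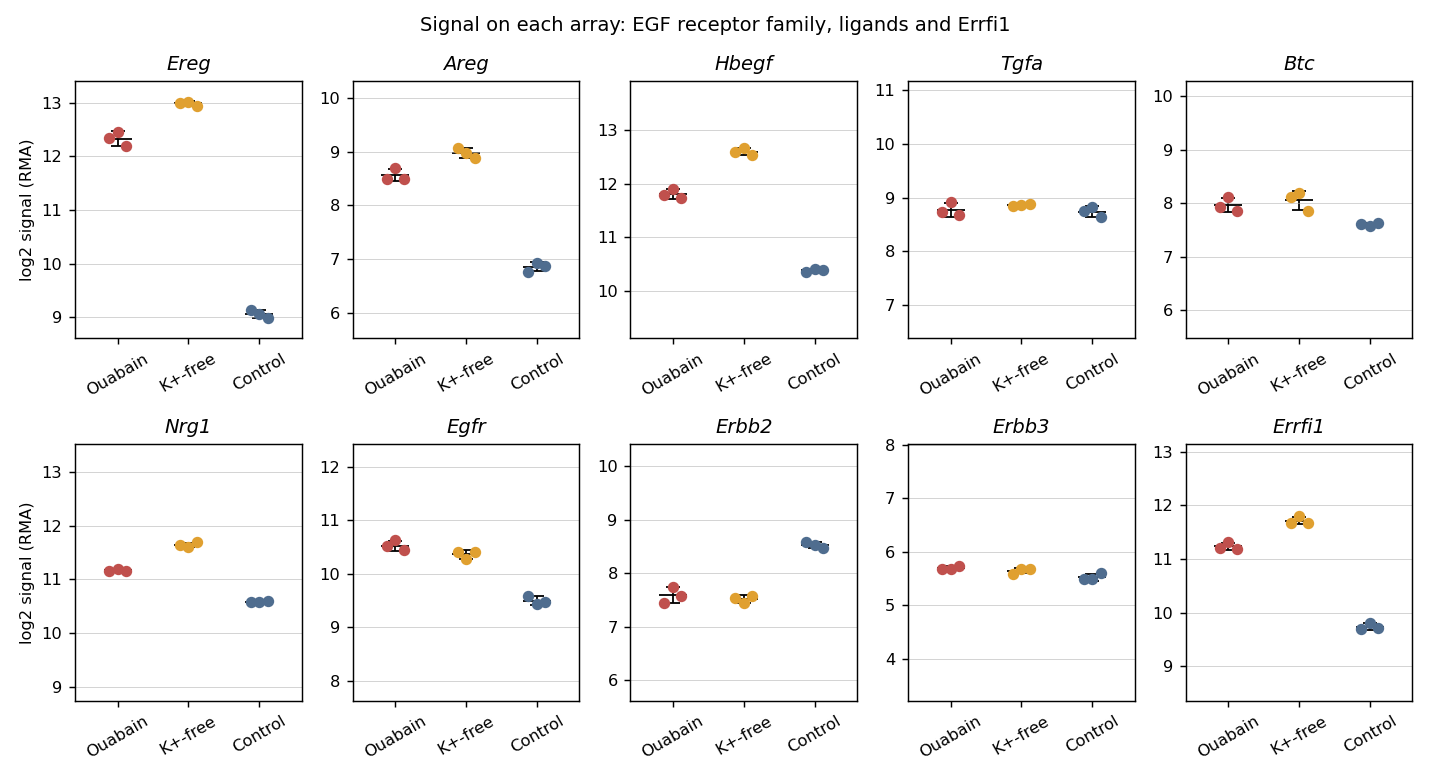
Log2 RMA signal (vertical axis) of the 10 genes on each array, by condition (horizontal axis); every panel spans the same number of log2 units, points are single arrays, and bars are the mean and SD of 3. *Ereg* stood at 12.19 to 12.46 with ouabain, 12.94 to 13.02 in K+-free medium and 8.99 to 9.14 in control, while *Erbb2* lay lower in all 6 treated arrays.

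*Ereg* encodes epiregulin, a ligand of both EGFR and ERBB4. Its log2 signal was 12.34, 12.46 and 12.19 on the ouabain arrays, 13.00, 13.02 and 12.94 on the K+-free arrays, and 9.14, 9.06 and 8.99 on the control arrays. All treated arrays thus lay at least 3.05 above the highest control, and all K+-free arrays lay above all ouabain arrays. The mean difference was 3.27 with ouabain, or 9.63-fold, and 3.92 in K+-free medium, or 15.1-fold. Counting *Ereg* itself, 2 genes of the 14324 reached its difference with ouabain and 9 reached its difference in K+-free medium.

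*Areg* encodes amphiregulin, which lies next to *Ereg* on rat chromosome 14 and binds EGFR. Its promoter is shown because it alone of the 7 promoters found here holds a full cAMP response element, the site to which CREB binds. The capitals mark that element, TGACGTCA, and a TATA box, TATAAA, between bases -120 and -21 from the RefSeq start (GRCr8, chr14:17265662-17265761, minus strand):
*Areg*: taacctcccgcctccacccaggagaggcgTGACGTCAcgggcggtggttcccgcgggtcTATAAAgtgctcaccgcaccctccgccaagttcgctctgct

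*Areg* measured 8.49, 8.69 and 8.50 with ouabain, 9.08, 8.97 and 8.88 in K+-free medium, and 6.76, 6.93 and 6.87 in control. The groups did not overlap, and 1 control array lay under its array median. *Areg* was therefore 1.71 above control with ouabain and 2.13 above it in K+-free medium, or 3.26-fold and 4.37-fold.

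*Hbegf* encodes the heparin-binding ligand of EGFR and ERBB4. A stretch of its promoter is shown because it holds a half-site of the cAMP response element, TGACG in capitals, at -193 from the start (bases -206 to -177, GRCr8, chr18:28390397-28390426, minus strand):
*Hbegf*: cggctgattggccTGACGgaccttcaaggg

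*Hbegf* signal was 11.79, 11.90 and 11.73 with ouabain, 12.60, 12.67 and 12.53 in K+-free medium, and 10.36, 10.40 and 10.39 in control. Control arrays were close together, with an SD of 0.020, and the lowest K+-free array was 0.63 above the highest ouabain array. The differences from control were 1.43 with ouabain and 2.22 in K+-free medium, or 2.69-fold and 4.65-fold. Between the treatments, *Hbegf* was 1.73-fold higher in K+-free medium than with ouabain, the widest such gap among the 10 genes.

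*Nrg1* encodes neuregulin, a ligand of ERBB3 and ERBB4 that acts through ERBB2 as the partner receptor. Its signal was 11.15, 11.20 and 11.16 with ouabain, 11.64, 11.61 and 11.69 in K+-free medium, and 10.57, 10.58 and 10.60 in control. The spread within groups was at most 0.036 (SD, n = 3), and the groups stood apart. *Nrg1* was 0.59 above control with ouabain and 1.06 above it in K+-free medium.

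The remaining ligands moved little. *Btc*, for betacellulin, was 7.93, 8.11 and 7.86 with ouabain, 8.12, 8.19 and 7.85 in K+-free medium, and 7.62, 7.57 and 7.63 in control, which put every treated array above every control. Its differences of 0.36 and 0.45 were the smallest of the genes called, and after centring the arrays on *B2m* the ouabain difference was 0.21 and no longer passed the rule. *Tgfa*, for transforming growth factor alpha, was 8.74, 8.92 and 8.67 with ouabain, 8.85, 8.87 and 8.89 in K+-free medium, and 8.75, 8.83 and 8.63 in control. Ouabain and control arrays of *Tgfa* overlapped, with a difference of 0.04. The K+-free arrays lay above control by as little as 0.02, with a mean difference of 0.14 that did not pass the rule, though it was 0.32 and did so after repeated quantile normalization.

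*Egfr* encodes the receptor for *Ereg*, *Areg*, *Hbegf*, *Btc* and *Tgfa* products. It measured 10.51, 10.62 and 10.44 with ouabain, 10.41, 10.27 and 10.40 in K+-free medium, and 9.59, 9.43 and 9.48 in control. Treated arrays were all above control, by 1.02 on average with ouabain (2.03-fold) and by 0.86 in K+-free medium (1.81-fold). The K+-free arrays lay just under the ouabain arrays, the reverse of the order seen for *Ereg*, *Areg*, *Hbegf* and *Nrg1*, but the difference of -0.16 did not pass the rule.

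*Erbb2* encodes the receptor that binds no ligand of its own and serves as the preferred partner of the others. It was the only one of the 10 genes that was lower after treatment, and its promoter is shown for that reason (bases -120 to -21, GRCr8, chr10:83907481-83907580, plus strand). No cAMP response element, half-site or TATA box was found in this promoter, nor in those of *Tgfa* or of *Egfr* and *Btc*, which rose. With none to mark, no base is in capitals:
*Erbb2*: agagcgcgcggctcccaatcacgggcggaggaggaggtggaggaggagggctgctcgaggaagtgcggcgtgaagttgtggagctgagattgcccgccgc

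*Erbb2* signal was 7.44, 7.75 and 7.58 with ouabain, 7.54, 7.44 and 7.58 in K+-free medium, and 8.59, 8.52 and 8.47 in control. The highest treated array was 0.72 below the lowest control, and the treatments overlapped with each other. The differences from control were -0.93 with ouabain and -1.0 in K+-free medium, so that signal in control was 1.91-fold and 2.0-fold that of the treated cells.

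*Erbb3*, for the neuregulin receptor with an impaired kinase, was at 5.68, 5.68 and 5.74 with ouabain, 5.59, 5.67 and 5.67 in K+-free medium, and 5.49, 5.49 and 5.60 in control. All 9 values lay under the array medians, and neither difference (0.18 and 0.12) passed the rule. *Egf*, *Nrg2* and *Erbb4*, the other measured ligands and receptors, were under the medians on all arrays too. Their differences from control ran from -0.19 to 0.18, with none called in any of the 3 comparisons by limma. By an adjusted p alone 1 of these 9 passed, *Nrg2* in K+-free medium (limma adjusted p = 0.0392), and centring on *B2m* would call *Erbb4* lower after both treatments (-0.34 with ouabain, -0.32 in K+-free medium) and *Egf* lower with ouabain (-0.30). *Erbb4* was also called lower with ouabain after repeated quantile normalization (-0.29) and without Control replicate 2 (-0.27).

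*Errfi1* encodes MIG6, which binds the EGFR kinase domain, blocks it and is itself induced by the receptor. Its promoter is shown because it carries the reverse form of the half-site, CGTCA, and a TATA box, both in capitals (bases -120 to -21, GRCr8, chr5:166606721-166606820, plus strand):
*Errfi1*: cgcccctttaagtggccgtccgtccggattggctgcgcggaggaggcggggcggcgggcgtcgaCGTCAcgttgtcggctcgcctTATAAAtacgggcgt

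*Errfi1* signal was 11.21, 11.31 and 11.18 with ouabain, 11.67, 11.80 and 11.68 in K+-free medium, and 9.70, 9.81 and 9.71 in control. The 3 groups did not overlap, with the ouabain arrays in between. *Errfi1* was 1.49 above control with ouabain and 1.98 above it in K+-free medium, or 2.82-fold and 3.93-fold.

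**Figure D2:**
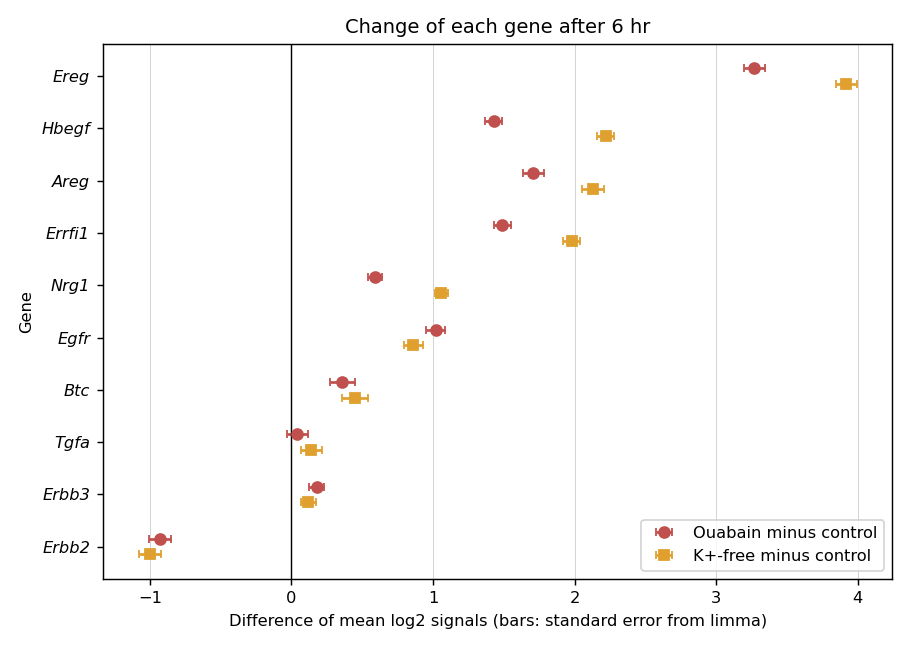
Difference of mean log2 signals from control (horizontal axis) for each of the 10 genes (vertical axis), ouabain in red circles and K+-free medium in yellow squares; bars are limma standard errors. *Ereg* leads at 3.27 and 3.92, *Tgfa* and *Erbb3* lie near 0, and *Erbb2* is alone on the negative side at -0.93 and -1.0.

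Set directly against ouabain, K+-free medium gave more signal of 5 of the 10 genes and less of none by the same rule, which called 10.9% of all genes upward and 10.7% downward. The 5 were *Hbegf* (0.79), *Ereg* (0.65), *Nrg1* (0.48), *Errfi1* (0.48) and *Areg* (0.42). Arrays of the 2 treatments did not overlap for these 5 and for *Egfr* and *Erbb3*, which lay lower in K+-free medium, while 40.0% of all genes did not overlap. *Areg* lost its call in the methods' t-test after Benjamini-Hochberg adjustment. In an ordinary analysis of variance, which the methods also describe, all 5 kept their calls. The median of the 10 differences was 0.26, beside -0.01 over all genes.

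Profiles over the 9 arrays, each centred on its own mean, were set side by side by their root mean square difference. Among the 10 genes, *Areg* and *Errfi1* were closest (0.113), followed by the weakly moving *Tgfa* and *Erbb3* (0.127) and by *Hbegf* and *Errfi1* (0.136). Over the 14314 other genes, *Ereg* was nearest to the stress cytokine *Gdf15* (0.181), the aryl hydrocarbon receptor target *Cyp1a1* (0.363) and *Nppc*, for C-type natriuretic peptide (0.433). *Gdf15* differed from control by 2.90 with ouabain and 3.92 in K+-free medium. Between K+-free medium and ouabain the difference was 0.65 for *Ereg* and 1.03 for *Gdf15*, but -0.13 for *Cyp1a1* and 0.13 for *Nppc*. *Hbegf* was nearest to the repressor *Bcl6* (0.0798), the small GTPase *Rab32* (0.0810) and the mitochondrial carrier *Slc25a25* (0.0817). *Errfi1* was nearest to the AP-1 subunit *Jun* (0.0682), *Pwwp3b* (0.0762) and the TGF-beta signal transducer *Smad3* (0.0765). *Jun* differed from control by 1.47 and 1.84, against 1.49 and 1.98 for *Errfi1*.

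The promoters compared here are windows of 250 bases before to 50 after each RefSeq start, 27457 in all, and 7 of the 10 genes were matched. The full cAMP response element TGACGTCA was found in *Areg* alone, at -91, and in 1.91% of all promoters. Its half-site TGACG, on either strand, was in *Areg*, *Errfi1* (-56) and *Hbegf* (-193), and in 22.0% of all promoters. The 2 half-sites of *Areg* are the full element itself. A TATA box, TATAAA, was in *Areg* (-61) and *Errfi1* (-35), and in 14.3% of all promoters. The core of the hypoxia response element was searched as ACGTG, found in *Egfr* (-36) and *Errfi1* (-53) and in 19.7% of promoters, and as GCGTG, found in every matched gene but *Tgfa* and in 31.1%. The GCGTG of *Areg* overlaps its cAMP response element, and the ACGTG of *Errfi1* overlaps its half-site. None of the 7 windows held the AP-1 site TGANTCA (7.33% of all promoters), the CArG box of serum response factor (1.64%), the EGR site GCGTGGGCG (0.590%) or the consensus NF-kB site (0.0947%). A match is a string of letters and not a site shown to be bound, and the same genes were found when only the part before the start was searched.

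**Figure D3:**
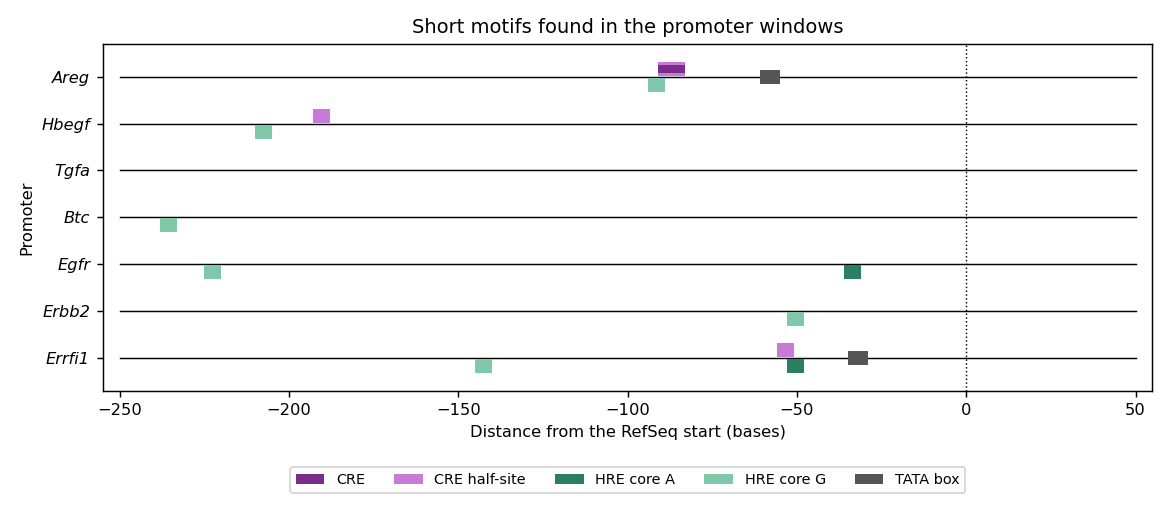
Short motifs in the promoter windows of 7 genes (vertical axis), by distance in bases from the RefSeq start (horizontal axis, dotted line at the start); blocks are motif matches on either strand, drawn to length. *Areg* holds the full cAMP response element (CRE) at -91 and *Errfi1* and *Hbegf* a half-site; HRE is the hypoxia response element.

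*Btc*, *Areg* and *Ereg* lie side by side on rat chromosome 14 (RefSeq order, GRCr8), and the 10 protein-coding genes on each side were read from the same arrays. Of these 20 neighbours 15 were measured, and *Epgn*, for the ligand epigen next to *Ereg*, was not among them. Of the 15, 7 rose and 1 fell with ouabain. In K+-free medium 7 rose and 2 fell. Of all genes, that rule called 17.5% upward and 22.7% downward with ouabain, and 17.8% and 24.0% in K+-free medium. The median differences of the neighbours were 0.20 and 0.22, beside 0.06 and 0.05 over all genes. The gene beyond *Epgn*, *Mthfd2l*, for a mitochondrial folate enzyme, measured 8.64, 8.56 and 8.54 with ouabain, 9.54, 9.27 and 9.37 in K+-free medium, and 7.30, 7.16 and 7.33 in control. It rose by 1.32 (limma adjusted p = 1.06e-07) with ouabain and by 2.13 (limma adjusted p = 3.15e-09) in K+-free medium. Next came the neutrophil chemokine genes, which stood far apart between the treatments.

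*Cxcl2* was at 5.95, 5.65 and 6.10 with ouabain, 12.71, 12.64 and 12.76 in K+-free medium, and 5.23, 5.46 and 5.52 in control. It rose by 7.30 in K+-free medium (limma adjusted p = 2.14e-11) and lay 6.80 above ouabain (limma adjusted p = 3.01e-11). Ouabain and control arrays all lay under the array medians, and their difference of 0.50 lost its call in the methods' t-test after Benjamini-Hochberg adjustment. *Cxcl6* rose by 5.40 in K+-free medium and was 0.36 above control with ouabain, *Cxcl3* differed by 3.70 and 0.57 in K+-free medium and with ouabain, and *Cxcl1* by 3.79 and 1.24. Ouabain's difference for *Cxcl6* was lost with centring on *B2m* (0.21) and in the methods' t-test too. *Pf4* and *Ppbp*, platelet chemokines of the same stretch, stayed under the array medians and were not called, with differences of 0.01 to 0.15. On the other side, *Parm1*, a mucin-like membrane protein next to *Btc*, rose by 0.67 with ouabain and 0.74 in K+-free medium.

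For the remaining measured neighbours, on either side, the differences were small. *Rchy1*, a ubiquitin ligase, was 0.31 and 0.32 above control, and lost both calls with centring on reference genes (0.24 each) or on *B2m* (0.16 each). *Thap6* fell by 0.45 with ouabain, and this too was lost after repeated quantile normalization (-0.25). *Cdkl2* was 0.29 lower than control in K+-free medium, which did not pass without Control replicate 1, Control replicate 2 or K+-free replicate 2 (-0.25 each), after repeated quantile normalization (-0.13) or in the methods' t-test after Benjamini-Hochberg adjustment. *Uso1*, a vesicle tether, fell by 0.40 in K+-free medium, whereas *Ppef2*, *G3bp2* and *Rassf6* were not called against control. *Ppef2* was called in K+-free medium without Control replicate 3 (0.28).

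**Figure D4:**
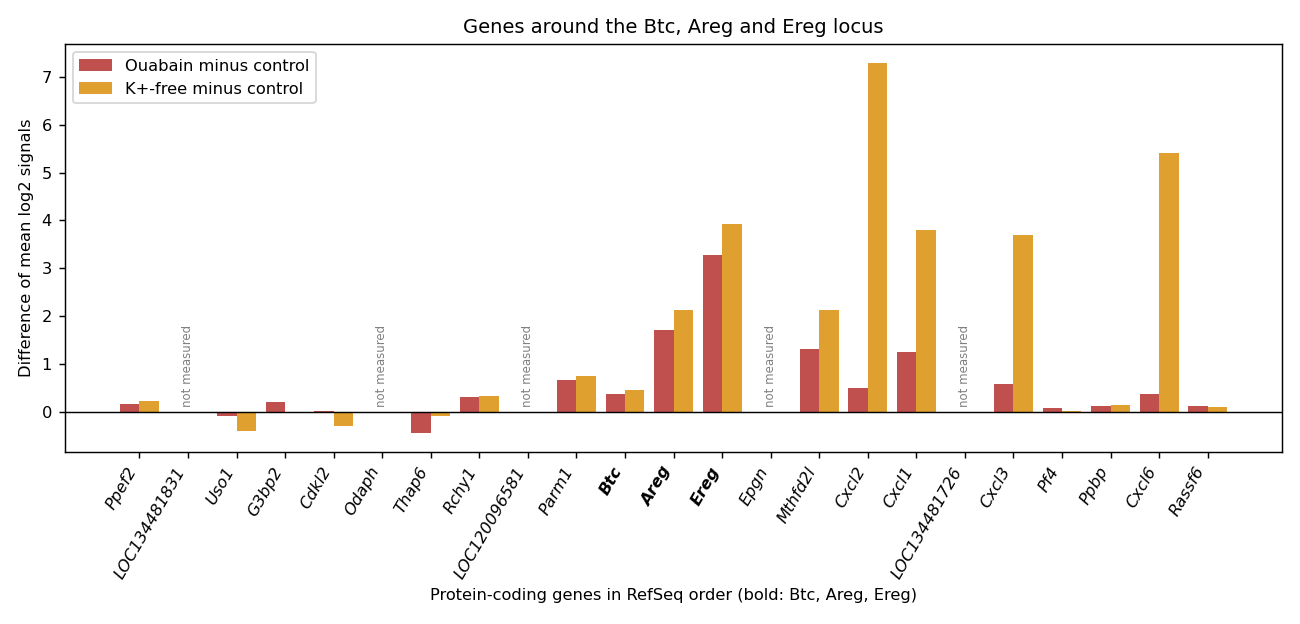
Difference of mean log2 signals from control (vertical axis) for *Btc*, *Areg* and *Ereg* (bold) and the 10 protein-coding genes on each side, in RefSeq order (horizontal axis); red bars are ouabain and yellow bars K+-free medium. *Mthfd2l* stands at 1.32 and 2.13, and *Cxcl2* at 0.50 and 7.30.

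Genes that act around the receptor were then counted from 7 lists, which hold 91 genes, 74 of them measured. These lists too were drawn up with earlier results of these data known. Their counts and medians are thus a description, and the p-values of their genes are no independent test. By the same rule, 36 of the 74 rose and 13 fell with ouabain. In K+-free medium 38 rose and 15 fell. These counts, and those of each list below, stand beside 17.5% upward and 22.7% downward over all genes with ouabain and 17.8% and 24.0% in K+-free medium, where the median of all genes was 0.06 and 0.05.

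Among genes for ligand shedding, 2 of 8 rose with ouabain and 4 of 8 in K+-free medium, and none fell. *Rhbdf2*, for iRhom2, which carries ADAM17 to the cell surface, had 8.30, 8.40 and 8.32 with ouabain, 10.06, 10.10 and 10.08 in K+-free medium, and 8.23, 8.12 and 8.0 in control. It rose by 1.96 in K+-free medium (limma adjusted p = 1.61e-09) and was 1.74 higher there than with ouabain (limma adjusted p = 1.76e-08). The ouabain difference of 0.22 did not reach the fold limit, though it did without Control replicate 1 (0.28) and after repeated quantile normalization (0.44). *Adam17* rose by 0.90 in K+-free medium (limma adjusted p = 7.83e-08). Its rise of 0.27 with ouabain sat at the fold limit and was lost without Control replicate 3 (0.26), Ouabain replicate 1 (0.25) or Ouabain replicate 3 (0.26). It was also lost after repeated quantile normalization (0.20), centring on reference genes (0.20) or centring on *B2m* (0.12). *Rhbdf1*, for iRhom1, rose by 0.65 with ouabain and 0.50 in K+-free medium. *Timp3*, the inhibitor of ADAM17, rose by 0.28 in K+-free medium, which was lost with centring on *B2m* (0.12) or on reference genes (0.21) and after repeated quantile normalization (0.24).

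Adaptors and kinases of the Ras-ERK pathway went both ways: 2 of 12 rose and 4 fell with ouabain. In K+-free medium 2 rose and 6 fell. *Map2k1*, for the ERK kinase MEK1, fell by 0.45 with ouabain and by 1.06 in K+-free medium (limma adjusted p = 7.54e-08). *Nras* fell by 0.69 and 0.78 and the RAF kinase *Araf* by 0.65 and 0.80. *Braf*, its paralog, rose by 0.55 and 1.10.

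Of 12 genes of the PI3K, phospholipase C and STAT arms, 3 rose and 6 fell with each treatment, but not all 6 were the same. *Src* fell with ouabain alone (-0.49) and *Plcg1* in K+-free medium alone (-0.39). The deepest fall was that of *Pik3r2*, a regulatory subunit of PI3K, at 7.43, 7.57 and 7.36 with ouabain, 7.38, 7.29 and 7.33 in K+-free medium, and 9.09, 8.93 and 9.03 in control. It fell by 1.56 (limma adjusted p = 1.36e-08) with ouabain and by 1.69 (limma adjusted p = 6.09e-09) in K+-free medium. The catalytic subunit *Pik3cd* fell by 1.21 and 1.54. *Stat5a* fell by 1.23 with ouabain and by 0.44 in K+-free medium, and the K+-free call was lost after repeated quantile normalization (-0.25), and it was 0.79 higher in K+-free medium than with ouabain (limma adjusted p = 9.45e-05). *Stat3* rose by 0.74 and 0.98.

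Genes for receptor removal and inhibition rose in 8 of 15 cases and fell in 3 with each treatment, but not all 3 were the same. *Tnk2* fell with ouabain alone (-0.29) and *Hgs* in K+-free medium alone (-0.48). The ubiquitin ligase *Cblb*, which tags the receptor for degradation, rose by 0.90 with ouabain and 0.91 in K+-free medium. The sorting adaptor *Stam* rose by 0.77 and 0.93. *Ptpn1*, for the phosphatase PTP1B, rose by 0.42 and 1.15, whereas the endocytic adaptor *Eps15* fell by 0.68 and 1.22.

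Feedback inhibitors of ERK rose in 9 of 12 cases with either treatment, and none fell. *Dusp6*, a phosphatase that inactivates ERK, was at 10.20, 10.25 and 10.06 with ouabain, 10.75, 10.76 and 10.67 in K+-free medium, and 8.90, 8.91 and 8.86 in control. It rose by 1.28 (limma adjusted p = 2.73e-08) with ouabain and by 1.83 (limma adjusted p = 1.86e-09) in K+-free medium. The Sprouty genes, inhibitors of receptor tyrosine kinase signaling, differed in their order. *Spry2* rose by 1.17 and 1.01, *Spry4* by 0.44 and 1.23, and *Spry1* by 0.27 and 1.04. The *Spry1* rise with ouabain was lost without Control replicate 1 (0.26), Ouabain replicate 1 (0.25) or Ouabain replicate 3 (0.26), and with centring on reference genes (0.21) or *B2m* (0.12).

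Immediate early targets of the receptor rose in 12 of 12 cases with either treatment, with medians of 1.14 for ouabain and 2.23 for K+-free medium. Of the 12, 11 were also called higher in K+-free medium than with ouabain, beside 10.9% of all genes. *Fos* measured 8.84, 9.05 and 8.94 with ouabain, 10.18, 9.85 and 9.81 in K+-free medium, and 6.90, 7.20 and 6.80 in control, and rose by 1.98 and 2.98 (limma adjusted p = 1.55e-07 and 6.98e-09). *Atf3* rose by 2.18 and 2.97, *Klf10* by 2.03 and 2.84 and *Egr2* by 0.71 and 2.54. These genes answer to many other signals as well, and receptor activity was not measured on these arrays.

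**Figure D5:**
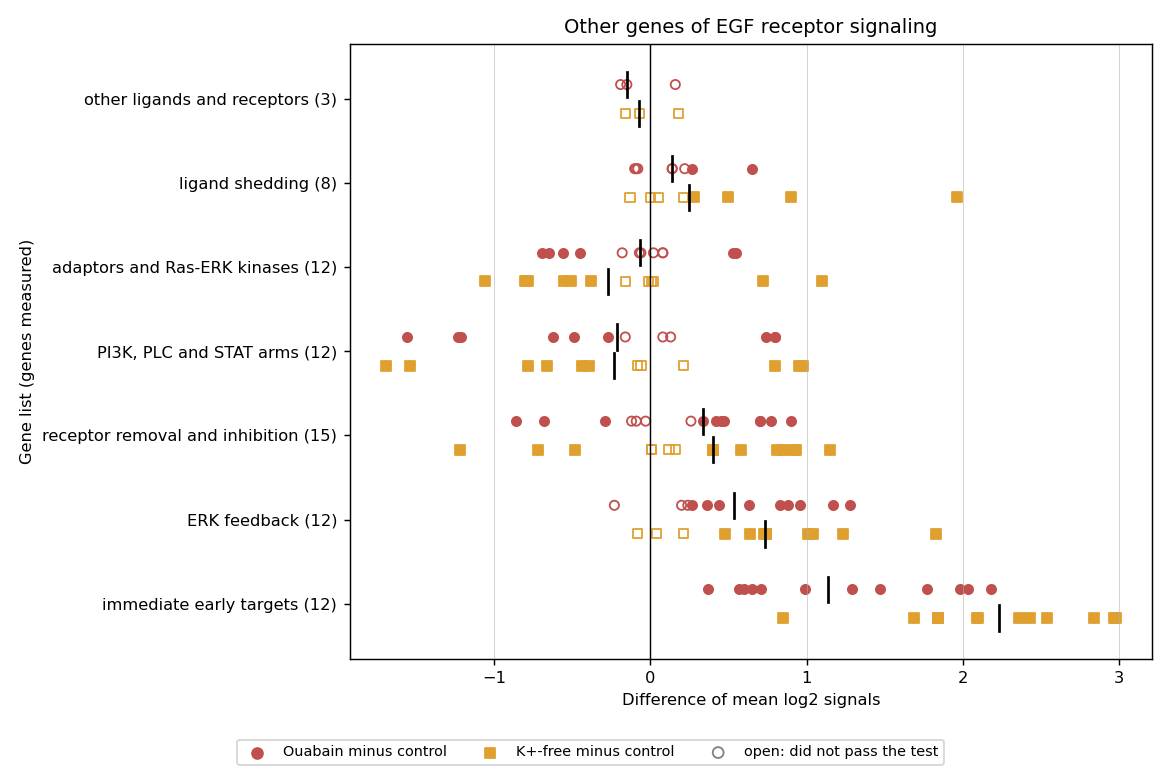
Difference of mean log2 signals from control (horizontal axis) for single genes of 7 lists (vertical axis, genes measured in brackets); red circles are ouabain, yellow squares K+-free medium, open symbols did not pass the rule, and black ticks are list medians. All 12 immediate early targets lie right of 0, with medians of 1.14 and 2.23.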

How the data were processed

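The table deposited by the authors holds log2 signals for 27342 probe sets. Per the labels, the authors made them with Partek and RMA (versions: not given in the sources used here), and the methods also name MAS5 and GeneSpring. The 3 arrays of a group were independent experiments, with controls and treatments run alongside each other in each one, and p-values measure the spread between these arrays. The paper gives another number per group in one passage and another ouabain unit in one legend, and the labels were followed. With 9 arrays, their number limits the precision. The annotation gives 1 gene symbol for 15097 probe sets, several for 323 and none for 11922. For genes with several probe sets, the brightest on average was used.

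limma 3.58.1 in R 4.3.3 fitted 1 mean per condition over 9 arrays, with empirical Bayes moderation and Benjamini-Hochberg adjustment within each contrast over every probe set. Calls needed an adjusted p below 0.05 and more than a 1.2-fold difference. The fit was tested on simulated data. The genes and lists were chosen with earlier results of these data known. Named are the 10 genes, other measured ligands and receptors, up to 4 called genes with the largest change in each list, measured neighbours within 10 genes, and the 3 genes most alike *Ereg*, *Hbegf* and *Errfi1*. Promoters and gene order are from RefSeq (GRCr8). Alternatives were other scalings, filters, tests and fold limits, and leaving out each array.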

Additional observations from a re-analysis of the deposited data

Results flagged for a closer look

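For 2 genes of the pathway lists, every ouabain array lay on one side of the control range and every K+-free array on the other. They were picked from the lists by this pattern, so the p-values below do not test it. No difference from control passed the rule: *Grb2* differed by 0.08 with ouabain and -0.16 in K+-free medium, and *Pik3r1* by -0.16 and 0.21. The adaptor *Grb2* was at 9.52, 9.60 and 9.53 with ouabain, 9.33, 9.34 and 9.25 in K+-free medium, and 9.46, 9.43 and 9.50 in control, with a difference of -0.24 between K+-free medium and ouabain (limma adjusted p = 0.00516). That difference is under the fold limit of 1.2. The PI3K subunit *Pik3r1* was at 11.25, 11.18 and 11.16 with ouabain, 11.61, 11.51 and 11.59 in K+-free medium, and 11.37, 11.34 and 11.36 in control, with a difference of 0.37 (limma adjusted p = 2.98e-04).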

How the results depend on the processing

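Of the differences of named genes under the alternatives, 3935 kept their direction and side of the rule or were not called (40 of these changed sign without a call), 67 lost a call, 18 gained one and 0 reversed. Centring on *B2m* left 2166 probe sets higher and 6223 lower with ouabain and 2375 and 7059 in K+-free medium, against 4312, 4583, 4391 and 4890 as deposited. It moved the median of all probe sets from 0.07 and 0.06 to -0.08 and -0.10. This centring takes the differences of *B2m* itself, 0.15 and 0.16, off every probe set. Without a fold limit, 6873 probe sets were higher with ouabain and 6858 in K+-free medium. At a fold above 1.5, ouabain changed 3924 probe sets (1277 up, 2647 down), 8 pathway genes downward and 3 neighbours. K+-free medium changed 4318 (1578 up, 2740 down) and 9 pathway genes downward. K+-free medium against ouabain changed 1149 (647 up, 502 down), with 2 of the 10 genes and 15 pathway genes upward, 1 pathway gene downward and 5 neighbours. The methods' t-test after Benjamini-Hochberg adjustment called 2896 probe sets between the treatments (1528 up, 1368 down; 4491 in limma) and 5 neighbours with ouabain. At its unadjusted threshold it called 8546 with ouabain, 8890 in K+-free medium and 4334 between the treatments. Beyond the fold limit itself and the *B2m* differences taken off by that centring, the cause of these shifts was not tested.

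Leaving out each array in turn gave 8435 to 9701 probe sets with ouabain (3940 to 4883 up, 4495 to 4818 down), 8863 to 9525 in K+-free medium (4134 to 4590 up, 4729 to 4958 down) and 4291 to 4639 between the treatments (2162 to 2487 up, 2073 to 2252 down). Counts of the 10 genes stayed at 7 up and 1 down against control and at 5 up and 0 down between the treatments. Pathway genes were 35 to 36 up and 11 to 14 down with ouabain, 38 up and 15 down in K+-free medium, and 22 to 25 up and 8 to 9 down between the treatments, and neighbours called were 8, 8 to 10 and 7 to 8. With the replicate number as a block, 8978, 9352 and 4587 probe sets were called, and no count of the 10 genes, pathway genes or neighbours moved. Each experiment held controls and treatments together by design, but the labels do not say that a replicate number marks an experiment. For that reason the numbers were not taken as pairs. Same-numbered arrays correlated at -0.0464 to 0.3086 in their deviations. Differently numbered arrays were not compared, so these values cannot decide whether the numbers mark pairs. Signals under the array medians, as for *Erbb3*, limit what these arrays can show.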
